A study of Mus musculus with 5 samples.

Results

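Ifit1, Ifit2, Ifit3, Isg15, Usp18, Rsad2 and Rtp4 are 7 antiviral genes that cells switch on when they sense interferon, and they were named as a set for this account. All 7 were among the 16498 genes of a table of single cells from the aortic arch of atherosclerotic mice, and their levels were read in each cell type and in each library. The control mice were Apoe-/- (genotype Oasl1+/+Apoe-/-), which lack apolipoprotein E and develop plaque. The other mice were labelled Oasl1-/-Apoe-/- and carry in addition a whole-body null allele of Oasl1, made by deleting its promoter and exon 2. Both groups were littermates on a C57BL/6 background and had eaten normal chow for 28 weeks. Cells of several mice were pooled, with n = 6 given without saying whether this was per group or per library. The droplet data held 2 libraries of Apoe-/- mice and 3 labelled Oasl1-/-Apoe-/-. The 2 Apoe-/- libraries had 4078 and 4338 cells and the other 3 had 3404, 3212 and 3228, with a median of 4495 to 5186.5 unique molecular identifiers (UMIs) per cell. Oasl1 itself was higher in the libraries labelled Oasl1-/-Apoe-/-, at 0.169, 0.163 and 0.198 UMIs per 10000 against 0.0145 and 0.00854 in Apoe-/-. The libraries read 3′ ends, and where the reads of Oasl1 lie relative to the deleted part was not examined. What this level says about the labels or the deletion was not tested, and the labels were kept as given. Since nothing says which mice went into which library, p-values below measure the spread between these 5 libraries. In all, 165 cell barcodes occurred in more than 1 library.

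Type I interferons bind a receptor on the cell surface and activate a factor that holds STAT2 and IRF9 and binds a short motif, the interferon-stimulated response element, in front of its target genes. The IFIT proteins bind viral RNA and hinder its translation. ISG15 is a ubiquitin-like protein that is attached to other proteins by a chain of 3 enzymes, UBA7, UBE2L6 and HERC6, and USP18 takes it off again and also damps signalling at the interferon receptor. RSAD2 (viperin) is a radical SAM enzyme that makes a chain-terminating nucleotide, and RTP4 is a chaperone-like protein that is induced by interferon. In plaque, a response to interferon is known from macrophages, endothelial cells and T cells.

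On mm10 (GRCm38), with gene models of GENCODE, 3 of the genes lie close together on chromosome 19 and all on the plus strand, Ifit2 at chr19:34550694-34576419, Ifit3 at chr19:34583531-34588731 and Ifit1 at chr19:34640871-34650009. Isg15 is a gene of 2 exons at chr4:156199424-156200818 on the minus strand, and Rsad2 has 6 exons at chr12:26442746-26456452, also on the minus strand. Usp18 lies at chr6:121245906-121270917 and overlaps the antisense transcript Gm44148. Rtp4 lies at chr16:23520291-23614222 and overlaps Masp1 on the other strand and Gm45338 on its own. Gm45338 is not among the genes of the data, so no counts were split with it. Whether reads were lost through the overlap was not examined. Of the 90-base stretches in the last 500 bases of the transcripts, 27 of 411 (6.57%) of Ifit3 were shared with its near-copy Ifit3b, and 0 stretches of the other 6 genes were shared with another gene. Reads of Ifit3 and Ifit3b are therefore partly uncertain.

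The promoters are shown because the members moved together and because 3 of the 4 printed windows with the response element hold it more than once. Each is a RefSeq window on GRCm38.p6 from 250 bases before to 50 bases after the transcript start, 5′ to 3′ on the strand of the gene, and capitals mark the response element as searched for, GAAA, any 2 bases and GAAA, or on the other strand TTTC, any 2 bases and TTTC. The regions are chr19:34640639-34640938 (plus) for Ifit1, chr19:34583279-34583578 (plus) for Ifit3, chr4:156200769-156201068 (minus) for Isg15, chr12:26456403-26456702 (minus) for Rsad2 and chr19:34550444-34550743 (plus) for Ifit2.
Ifit1: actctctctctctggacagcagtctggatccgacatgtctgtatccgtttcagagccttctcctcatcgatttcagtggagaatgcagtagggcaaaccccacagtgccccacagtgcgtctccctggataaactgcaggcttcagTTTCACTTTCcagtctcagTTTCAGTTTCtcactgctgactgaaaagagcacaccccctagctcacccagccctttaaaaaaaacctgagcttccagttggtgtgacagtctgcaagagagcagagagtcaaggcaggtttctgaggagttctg
Ifit3: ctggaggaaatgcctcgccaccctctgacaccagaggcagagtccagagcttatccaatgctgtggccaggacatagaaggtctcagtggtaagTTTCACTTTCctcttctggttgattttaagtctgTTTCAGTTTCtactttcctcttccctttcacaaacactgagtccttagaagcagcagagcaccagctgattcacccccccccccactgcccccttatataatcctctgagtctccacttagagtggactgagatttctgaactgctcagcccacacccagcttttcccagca
Isg15: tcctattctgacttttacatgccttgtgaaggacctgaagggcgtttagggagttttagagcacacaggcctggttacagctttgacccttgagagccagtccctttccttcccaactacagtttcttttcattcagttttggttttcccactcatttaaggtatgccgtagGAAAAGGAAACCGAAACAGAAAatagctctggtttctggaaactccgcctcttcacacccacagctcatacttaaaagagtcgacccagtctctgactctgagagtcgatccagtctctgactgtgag
Rsad2: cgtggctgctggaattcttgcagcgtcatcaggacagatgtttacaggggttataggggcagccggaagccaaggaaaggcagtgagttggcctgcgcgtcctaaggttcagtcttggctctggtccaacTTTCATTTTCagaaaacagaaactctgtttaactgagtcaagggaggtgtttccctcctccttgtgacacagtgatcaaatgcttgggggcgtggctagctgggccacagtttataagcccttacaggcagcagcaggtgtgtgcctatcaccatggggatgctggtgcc
Ifit2: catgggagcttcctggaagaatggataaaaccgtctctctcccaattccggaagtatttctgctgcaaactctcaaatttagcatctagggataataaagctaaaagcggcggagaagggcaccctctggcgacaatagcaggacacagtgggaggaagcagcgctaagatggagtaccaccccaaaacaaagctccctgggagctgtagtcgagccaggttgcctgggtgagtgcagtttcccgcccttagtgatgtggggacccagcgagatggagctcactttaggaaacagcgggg
In Ifit1 the 2 matches began 104 and 85 bases before the start, in Ifit3 156 and 122 bases before it, and in Isg15 3 overlapping matches began 78, 72 and 66 bases before it. Rsad2 had 1 match, 120 bases before the start, and the letters were not found in either of the 2 windows of Ifit2. No window of Usp18 or Rtp4 was used. The motif was in 1131 of all 32851 promoter windows of this length (3.44%), and 74 of them (0.225%) held it at least 2 times. Among other interferon-stimulated genes 35 of 81 windows (43.2%) held it, and among genes of interferon signalling 5 of 26 (19.2%). A match is a description of these letters and not evidence of binding.

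Over the whole aorta, all 7 genes were higher in the libraries labelled Oasl1-/-Apoe-/-. Levels are means over cells of UMIs per 10000 UMIs of the cell (CP10K), and differences between groups are on the scale of log2(CP10K + 0.05). Isg15 was the most abundant, at 0.346 and 0.249 CP10K in Apoe-/- and 1.95, 1.93 and 1.87 in the others. Rtp4 followed at 0.116 and 0.104 against 0.806, 0.761 and 0.737. Ifit3 stood at 0.0759 and 0.0695 against 0.661, 0.613 and 0.718. In each of these genes the lowest of the 3 libraries was several times above the higher Apoe-/- library. Ifit1 was at 0.0837 and 0.0441 against 0.419, 0.390 and 0.447 CP10K, Rsad2 at 0.0451 and 0.0478 against 0.409, 0.399 and 0.403, and Usp18 at 0.0296 and 0.0134 against 0.374, 0.321 and 0.334. Ifit2 was the least changed, at 0.0398 and 0.0489 against 0.159, 0.131 and 0.137 CP10K. In limma fits across all 9836 genes tested, 7 of 7 members rose, where 20.5% of all genes were called higher, with log2 differences from 1.03 (SE 0.087, Benjamini-Hochberg adjusted p = 7.64e-06) for Ifit2 to 2.54 (SE 0.074, adjusted p = 8.08e-09) for Ifit3. Ifit2, Usp18 and Rsad2 had passed the filter of a mean of 0.05 CP10K through the libraries in which they were high, so the count of 7 is a description. Cells of a type and RNA per cell cannot be told apart in such an average, and smooth muscle cells made up more of the Apoe-/- libraries. With every library weighted to the same cell type shares, 7 of 7 members still rose while calls over all genes, in both directions together, dropped from 4045 to 1009. Of the 4045, 2014 were higher and 2031 lower. The share called higher with this weighting is not given here, so this count of 7 too is a description.

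**Figure D1:**
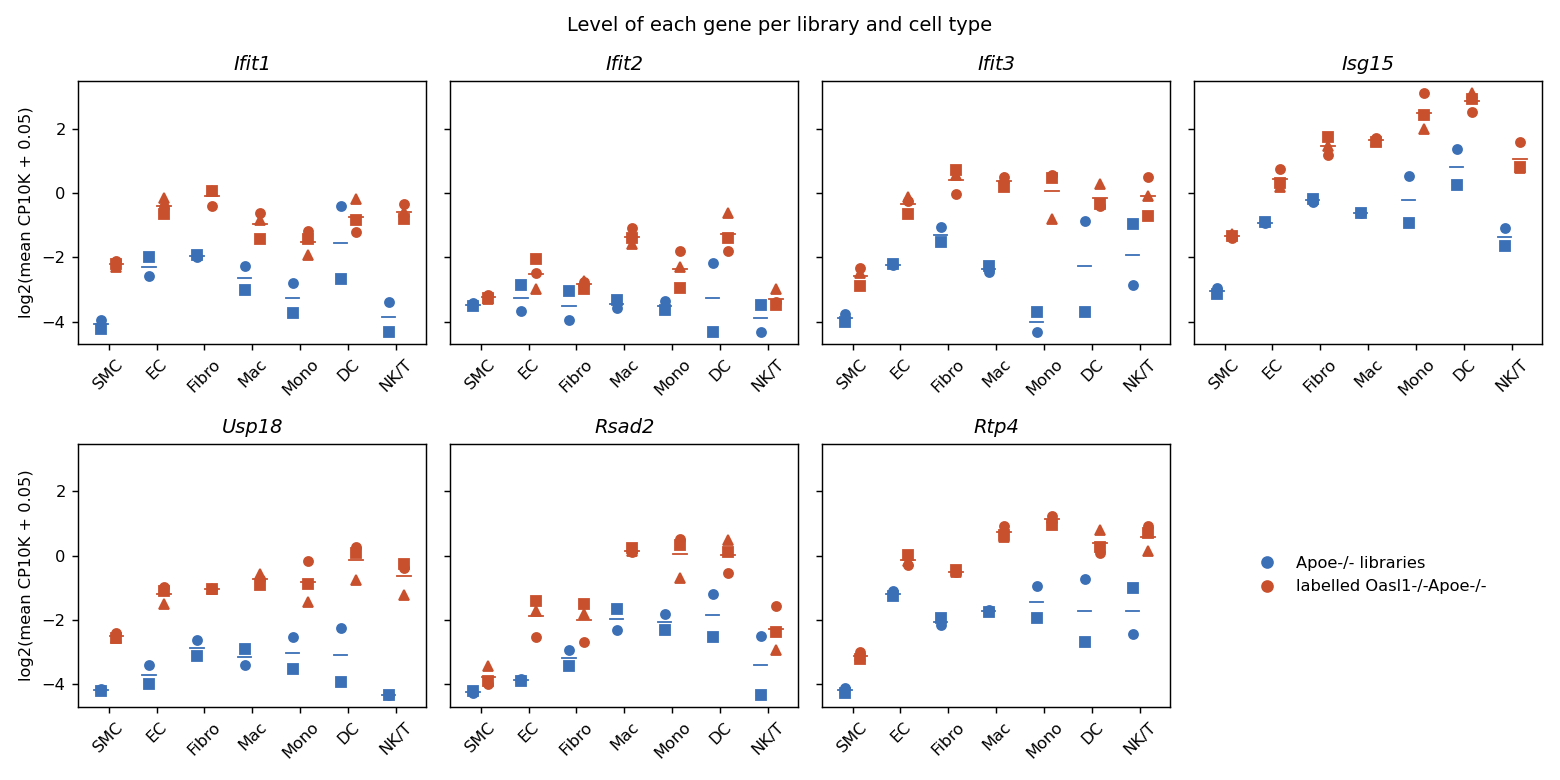
Level of each of the 7 genes as log2(mean CP10K + 0.05) in smooth muscle (SMC), endothelial (EC), fibroblast (Fibro), macrophage (Mac), monocyte (Mono), dendritic (DC) and NK/T cells. A point is a library (circle, square and triangle for replicates 1, 2 and 3), the short line is the group mean, and colours give the genotype labels. In macrophage-like cells the 3 libraries labelled Oasl1-/-Apoe-/- lie above both Apoe-/- libraries for all 7 genes, for example at 2.95 to 3.25 against 0.603 and 0.606 CP10K for Isg15.

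To ask in which cells the rise occurred, cells were clustered without the members and other interferon genes and clusters were named from markers. This gave smooth muscle-like (9894 cells), endothelial-like (1575), fibroblast-like (1360), macrophage-like (2276), monocyte-like (548), dendritic-like (414) and NK/T-like (724) cells, which are written without the suffix below. These names are rebuilt and may differ from the study's own.

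Macrophages showed the rise in all 7 genes. Isg15 was at 0.603 and 0.606 CP10K in Apoe-/- macrophages and at 3.25, 2.95 and 3.03 in those labelled Oasl1-/-Apoe-/-, a log2 difference of 2.25 (SE 0.081, limma, adjusted p = 3.66e-11). Ifit3 was at 0.133 and 0.158 against 1.36, 1.08 and 1.33, a log2 difference of 2.73 (SE 0.12, limma, adjusted p = 5.42e-10). Rtp4 was at 0.259 and 0.246 against 1.84, 1.53 and 1.46 CP10K, a log2 difference of 2.45 (SE 0.11). For these genes the 2 control libraries lay within a narrow band and every labelled library lay far above it. Usp18 rose from 0.0442 and 0.0848 to 0.554, 0.480 and 0.626 CP10K, and Rsad2 from 0.152 and 0.269 to 1.03, 1.13 and 1.05. Ifit1 rose from 0.159 and 0.0750 to 0.601, 0.319 and 0.504, the smallest change of the set at a log2 difference of 1.66 (SE 0.23, limma, adjusted p = 9.87e-05). Ifit2 rose from 0.0337 and 0.0506 to 0.418, 0.328 and 0.287 CP10K. Thus 7 of 7 members were called higher in macrophages, where 8.77% of the 7895 genes tested were, and in 7 of 7 the groups did not overlap, which held for 20.3% of genes. Ifit2 had passed the filter through the libraries labelled Oasl1-/-Apoe-/-, so this count too is a description.

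In endothelial cells, which line the vessel, 6 of 7 members rose, where 2.59% of genes were called higher, and in the same number the groups did not overlap, which held for 14.8% of genes. Ifit1 was at 0.118 and 0.20 CP10K in Apoe-/- and 0.687, 0.592 and 0.848 in those labelled Oasl1-/-Apoe-/-, which is a log2 difference of 1.87 (SE 0.22, limma, adjusted p = 2.74e-07). Usp18 was at 0.0450 and 0.0127 against 0.465, 0.415 and 0.302, a log2 difference of 2.51 (SE 0.28), on 7 UMIs in all Apoe-/- endothelial cells. Rtp4 was at 0.413 and 0.371 against 0.772, 0.957 and 0.849 CP10K, a log2 difference of 1.04 (SE 0.18). Endothelial Rtp4 thus started from a higher level than in macrophages and ended at a lower one. Ifit3 was at 0.16 and 0.166 against 0.799, 0.587 and 0.876 CP10K, Isg15 at 0.470 and 0.488 against 1.63, 1.20 and 1.10, and Rsad2 at 0.020 and 0.0171 against 0.125, 0.329 and 0.253. Ifit2 was the member not called, at 0.0294 and 0.0873 against 0.129, 0.192 and 0.0763 CP10K, with overlapping groups (log2 difference 0.76, SE 0.33, limma, adjusted p = 0.303). Usp18 and Rsad2 had passed the filter through the libraries in which they were high, so the count of 6 is a description.

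In fibroblasts 5 of 7 members rose, where 2.29% of genes were called higher. Isg15 was at 0.781 and 0.837 CP10K against 2.21, 3.27 and 2.72, Ifit3 at 0.434 and 0.295 against 0.933, 1.58 and 1.42, and Ifit1 at 0.202 and 0.211 against 0.705, 0.991 and 1.0. Usp18 was at 0.113 and 0.0641 against 0.440, 0.443 and 0.440 CP10K, and Rtp4 at 0.174 and 0.212 against 0.650, 0.680 and 0.655. The 5 log2 differences lay between 1.55 and 1.87. Rsad2 was at 0.0803 and 0.0434 against 0.105, 0.301 and 0.236 CP10K and missed the threshold (log2 difference 1.18, SE 0.32, limma, adjusted p = 0.0636). With the replicate number as a block it passed (limma, adjusted p = 0.0197). These numbers are taken as names only, so Rsad2 is counted as not called. Ifit2 was at 0.0147 and 0.0713 against 0.0983, 0.0777 and 0.101 CP10K (limma, adjusted p = 0.261).

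Smooth muscle cells held the members at the lowest level. Isg15 was at 0.0799 and 0.0627 CP10K in Apoe-/- and 0.326, 0.348 and 0.363 in those labelled Oasl1-/-Apoe-/-, which is a log2 difference of 1.71 (SE 0.093, limma, adjusted p = 1.55e-10). Ifit1 was at 0.0155 and 0.00294 against 0.180, 0.166 and 0.154, Usp18 at 0.00685 and 0.00386 against 0.141, 0.120 and 0.120, and Ifit3 at 0.0244 and 0.0117 against 0.15, 0.0837 and 0.130. The groups were apart in all of these. The other 3 members were under the filter of a mean of 0.05 CP10K and were not tested. Of them, Rtp4 was at 0.00844 and 0.00223 against 0.0752, 0.0570 and 0.0662 CP10K and Rsad2 at 0.00157 and 0.00410 against 0.0127, 0.0175 and 0.0432. Ifit2 was at 0.0435 and 0.0374 against 0.0620, 0.0531 and 0.0529, a fold of 1.38. The 4 tested members were all called higher, where 4.69% of genes were, and their groups did not overlap, which held for 21.6% of genes. Ifit1, Ifit3 and Usp18 had passed the filter through the libraries in which they were high, so the count of 4 is a description.

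The smaller classes rest on 67 to 179 cells a library. In monocytes 6 of 7 members rose, where 2.1% of genes were called higher. Their Isg15 was at 1.40 and 0.470 CP10K against 8.58, 5.29 and 3.90, Rtp4 at 0.474 and 0.210 against 2.32, 1.90 and 2.23 and Rsad2 at 0.238 and 0.153 against 1.40, 1.20 and 0.571. Monocyte Ifit3 rested on 1 UMI in 221 Apoe-/- cells, against 137 UMIs in 327 cells of the other libraries. The rise of Ifit1 in monocytes (limma, adjusted p = 0.0185) lost its call without Apoe-/- replicate 2 (0.299) and without replicate 1 (0.111) or replicate 2 (0.0889) labelled Oasl1-/-Apoe-/-. Ifit2 was not called in monocytes (limma, adjusted p = 0.248). Ifit2 and Ifit3 had passed the filter through the libraries labelled Oasl1-/-Apoe-/-, so the count is a description, and limma-voom on UMIs called 4 members here.

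In dendritic cells 4 of 7 members rose, where 1.09% of genes were called higher. Isg15 was at 2.55 and 1.15 CP10K against 5.71, 7.58 and 8.59 and Usp18 was at 0.16 and 0.0152 against 1.15, 1.01 and 0.549. The 2 Apoe-/- libraries differed here in every member, and Ifit1 overlapped between groups at 0.701 and 0.107 against 0.383, 0.514 and 0.834 CP10K (log2 difference 0.81, SE 0.50, limma, adjusted p = 0.584). The 0.701 of Apoe-/- replicate 1 rested on 19 UMIs in 1 of 67 cells (1.49%), against 6.19%, 6.49% and 10.0% of cells with Ifit1 in the libraries labelled Oasl1-/-Apoe-/-. Without Apoe-/- replicate 2 only 2 of 7 members were called. Leaving out replicate 2 or replicate 3 labelled Oasl1-/-Apoe-/- also left 2.

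In NK/T cells 5 of the 6 tested members rose, where 1.15% of genes were called higher. Isg15 was at 0.417 and 0.269 CP10K against 2.93, 1.71 and 1.67, and Rtp4 at 0.134 and 0.446 against 1.86, 1.60 and 1.05. Usp18 was found in 0 of 209 Apoe-/- NK/T cells, which allows a share of up to 1.44% of cells with a UMI. Against the limit of 3 UMIs over the group, 0.0722 CP10K, its pooled level of 0.572 in the libraries labelled Oasl1-/-Apoe-/- was 7.92 times as high. Both limits cover counting error only and not the spread between libraries, so this is no lower bound on the difference between the groups. By library, Usp18 was at 0.722, 0.784 and 0.383 CP10K in those labelled Oasl1-/-Apoe-/-. Rsad2 was at 0.129 and 0 against 0.286, 0.144 and 0.0816 CP10K (limma, adjusted p = 0.521). Ifit1 and Usp18 had passed the filter through the libraries labelled Oasl1-/-Apoe-/-, so the count of 5 is a description, and limma-voom on UMIs called 2 members here.

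**Figure D2:**
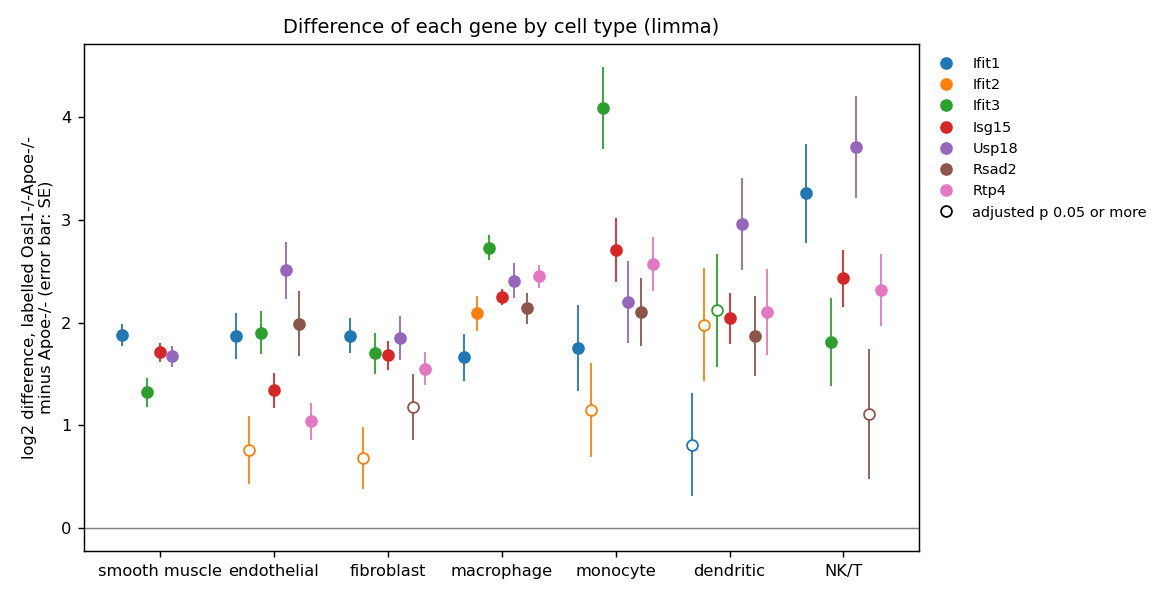
Log2 difference of each gene between libraries labelled Oasl1-/-Apoe-/- and Apoe-/- libraries, by cell type, on the scale of log2(CP10K + 0.05); bars are standard errors, filled points passed the adjusted p of 0.05, and members under the filter on low values have no point. In macrophages the 7 values lie between 1.66 and 2.73, and Ifit2 is among the smallest in endothelial cells (0.76) and fibroblasts (0.68).

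Whether the rise itself differed between cell types was tested on the difference of the log2 changes, on the scale of log2(CP10K + 0.05), which understates the change of low genes. On this scale the rise of Ifit3 in macrophages was larger than that in smooth muscle cells by 1.42 (SE 0.151, limma, adjusted p = 0.0084) and that of Isg15 by 0.55 (limma, adjusted p = 0.049). As folds of the mean CP10K, which have no pseudocount, the rise was 8.64-fold and 6.72-fold for Ifit3 and 5.09-fold and 4.85-fold for Isg15, much closer to each other. Usp18 (0.74, limma, adjusted p = 0.0818) and Ifit1 (−0.22, limma, adjusted p = 0.617) missed the threshold, so 2 of the 4 testable members differed, where 4.66% of genes did. Both calls were lost with a pseudocount of 0.01 CP10K, and Ifit3 had passed the filter in smooth muscle cells through the libraries in which it was high, so neither call shows that the rise differed between these classes. With the replicate block 1 of 4 was called, and leaving out a library left 1 to 3. Between macrophages and endothelial cells 0 of 7 members passed, where 0.111% of genes did. The largest differences were 1.41 for Rtp4 (limma, adjusted p = 0.123) and 1.33 for Ifit2 (limma, adjusted p = 0.172). Between endothelial and smooth muscle cells 0 of 4 passed, where 0.0362% of genes did.

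The mean summed level of the 7 members was 1.44 ± 0.0778 CP10K (SD, n = 2) in Apoe-/- macrophages and 8.38 ± 0.616 (SD, n = 3) in those labelled Oasl1-/-Apoe-/-, 5.84-fold higher. In endothelial cells it went from 1.26 and 1.34 CP10K to 4.61, 4.27 and 4.30 (3.38-fold), in fibroblasts from 1.80 and 1.73 to 5.14, 7.35 and 6.58 (3.6-fold) and in smooth muscle cells from 0.180 and 0.125 to 0.947, 0.845 and 0.928 (5.95-fold). As means over libraries, the level was 1.67 against 11.2 CP10K in monocytes, 3.27 against 12.3 in dendritic cells and 1.02 against 6.02 in NK/T cells. In order of their Apoe-/- means the classes ran from smooth muscle cells through NK/T cells, endothelial cells, macrophages, monocytes and fibroblasts to dendritic cells. The libraries of macrophages and monocytes, of monocytes and fibroblasts, and of fibroblasts and dendritic cells overlapped, while those of smooth muscle, NK/T, endothelial cells and macrophages did not. The groups did not overlap in any of the 7 classes, and 2 against 3 libraries allow no two-sided permutation p under 0.1.

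A mean can rise because each cell holds more or because more cells hold the RNA. In macrophages 26.1% and 30.5% of Apoe-/- cells had a UMI of any member, against 69.1%, 69.3% and 73.0% in the libraries labelled Oasl1-/-Apoe-/-. Pooled over libraries, Isg15 was seen in 18.3% of Apoe-/- macrophages (95% Wilson interval 15.4 to 21.7) and 44.7% of the others (42.4 to 47.1). Rtp4 was seen in 9.67% and 47.4%, Ifit3 in 2.94% and 22.4% and Rsad2 in 6.91% and 22.6%. These intervals cover counting error only. For comparison, erythroid-like cells, with a median of 1363 to 1769 UMIs against 5690 to 6801.5 in macrophages, held Rtp4 in 0 of 115 cells of Apoe-/- and 1 of 67 of the other libraries, and Ifit3 in 0 and 1. Isg15 was seen in 13.9% (95% Wilson interval 8.75 to 21.4) of these erythroid-like cells in Apoe-/- and 10.4% in the others, and Rsad2 in 10.4% and 5.97%. In Apoe-/- the share of macrophages with Rsad2 was thus below that of the erythroid-like cells, and the intervals for Isg15 overlapped. The name of these cells is uncertain. Naming each cell by its own markers gave 12 and 15 erythroid cells in Apoe-/- and 7, 5 and 0 in the others. Clusters of all variable genes gave no erythroid class but a B class, of 42 and 40 against 20, 14 and 16 cells. Whether these are the same cells was not tested, so no background level is taken from the erythroid-like cells.

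The members' RNA was unevenly spread over cells. If every macrophage carried its library's mean level, 97.9%, 96.9% and 97.6% of cells at their depth would have shown a UMI of a member in the 3 libraries labelled Oasl1-/-Apoe-/-, well above the shares found. In the Apoe-/- libraries the same reckoning gave 54.8% and 49.6%. The 10% of macrophages with the most held 78.3% and 66.2% of the members' UMIs in Apoe-/- and 59.3%, 59.9% and 55.9% in the others. The remaining cells were higher as well, with a mean of 0.273 and 0.381 CP10K against 4.01, 3.59 and 3.89. The median macrophage was at 0 CP10K in both Apoe-/- libraries and at 2.82, 2.71 and 2.69 in the other 3. Endothelial cells held a UMI of any member in 23% and 26.2% of cells against 50.8%, 52.7% and 50.2%, and smooth muscle cells in 6.23% and 5.09% against 19.7%, 20.9% and 20.8%.

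Cells with at least 3 of the 7 members were counted after every cell was thinned to 1000 UMIs, which left out 245 Apoe-/- cells and 311 of the others. Among macrophages their share was 0.704% and 0.678% in Apoe-/- (2 and 2 cells) and 5.85%, 5.22% and 5.20% in the others (33, 28 and 31 cells). Without thinning the shares were 3.87% and 3.73% against 27.1%, 23.5% and 29.2%. Among endothelial cells the thinned share was 0.251% and 0.253% against 2.33%, 3.59% and 1.83%, on 1 to 9 cells a library. Within the main endothelial cluster, led by Klk10 and Adh7, the groups overlapped, at 0.323% and 0.309% against 0.613%, 3.73% and 0%, and in a cluster led by Emcn, Plvap and Selp, whose part of the class was larger in the libraries labelled Oasl1-/-Apoe-/-, the share was 0% in both Apoe-/- libraries against 5.81%, 3.70% and 4.82%. In fibroblasts the thinned share was 1.64% and 1.83% against 3.09%, 3.87% and 4.56%. The groups overlapped in the fibroblast cluster led by Clec3b and Gpx3, at 3.17% and 3.28% against 5.95%, 4.0% and 2.25%. In the one led by Lum and Mmp3 they did not, at 0.833% and 0.971% against 2.08%, 3.81% and 5.42%. In smooth muscle cells the thinned share was at most 0.335% in any library. The limit of 3 was set, and whether cells past it form a separate type was not tested. Without thinning, 96 to 113 macrophages a labelled library had exactly 2 members and 49 to 74 had exactly 3.

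**Figure D3:**
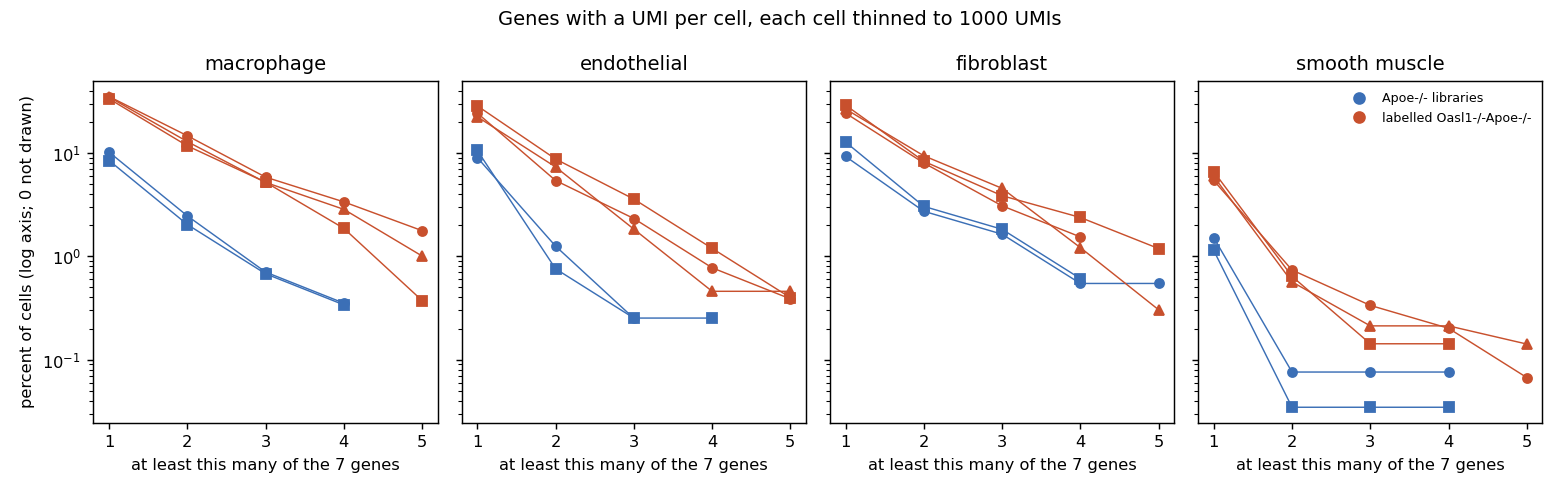
Percent of cells (log axis, shares of 0 not drawn) in which at least the given number of the 7 genes had a UMI after thinning to 1000 UMIs, for 4 cell types; a line joins the points of a library. Among macrophages, cells with at least 3 genes made up 5.20 to 5.85% in the libraries labelled Oasl1-/-Apoe-/- and 0.678 and 0.704% in Apoe-/-.

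The members were found together in the same cells. Among thinned macrophages labelled Oasl1-/-Apoe-/-, 77.9% of the 140 cells with Ifit3 held another member, against 28.7% of cells without it. For Ifit2 the shares were 87.0% and 32.5%, for Rsad2 64.6% and 29.9% and for Isg15 55.0% and 19.8%. In Apoe-/- macrophages with Isg15 33.3% of 27 cells held another member, against 4.89% without. Ifit2 in smooth muscle cells differed: of 25 thinned cells labelled Oasl1-/-Apoe-/- that held Ifit2, 0.0% held another member, against 5.44% of those without it, and in Apoe-/- the shares were 4.17% of 24 cells and 0.889%. Ifit2 was also the member whose level in smooth muscle cells was closest between the groups.

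To place cells without using the members themselves, each cell was given an interferon score, the summed CP10K of 80 other interferon-stimulated genes. Oasl1, the gene targeted by the null allele, is among these 80, in the score and in the list read below. In macrophages the score was higher in the libraries labelled Oasl1-/-Apoe-/- at every percentile computed. Its 10th percentile was 19.1 and 18.9 CP10K in Apoe-/- and 42.3, 40.0 and 38.9 in the others, its median was 32.2 and 34.2 against 87.2, 83.9 and 85.8, and its 90th percentile was 61.8 and 64.6 against 243, 225 and 226. The distribution thus lay higher as a whole and was also wider, with a 2.13-fold difference at the 10th and a 3.66-fold difference at the 90th percentile. In smooth muscle cells the folds were 1.49 and 1.6, in endothelial cells 1.67 and 1.64 and in fibroblasts 1.4 and 1.88. A few abundant genes make up much of the score, 5 of them 43.5% in macrophages (led by Ifitm3 and Ifi27l2a) and 77.1% in smooth muscle cells (led by Ifitm2 and Ifi27). Without these 5 the macrophage folds were 1.74 and 3.44 at the same percentiles.

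**Figure D4:**
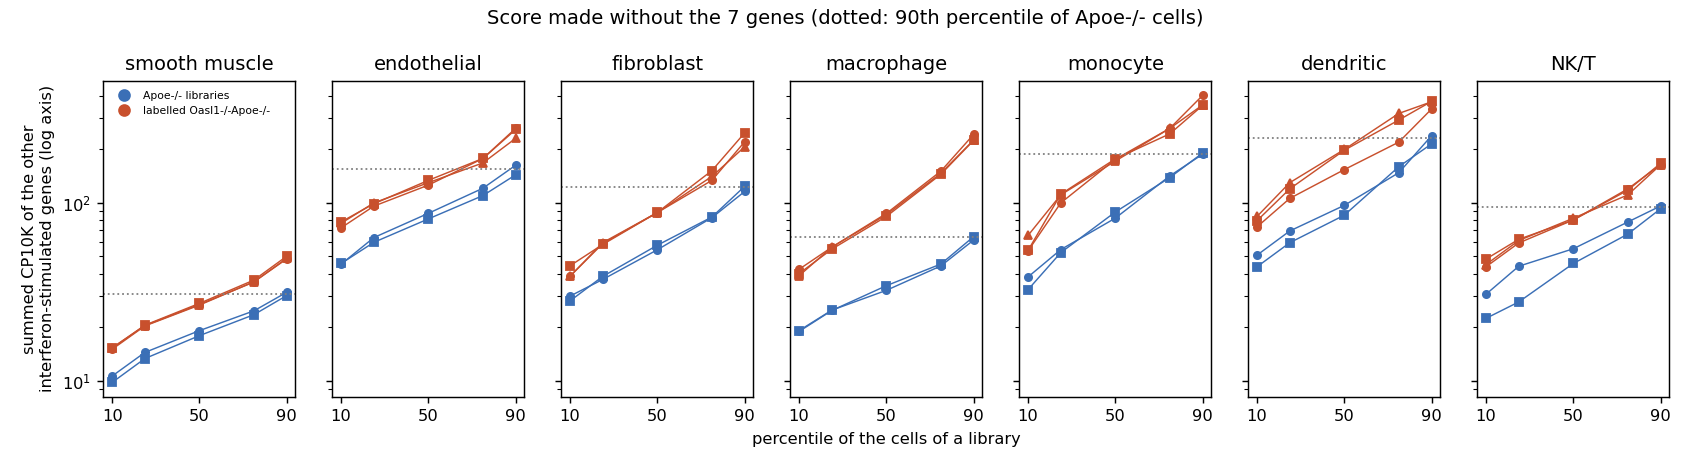
Percentiles of the interferon score (summed CP10K of 80 genes that exclude the 7, log axis) from the 10th to the 90th in each library of the 7 cell types; the dotted line is the 90th percentile of all Apoe-/- cells of the type. In macrophages the 10th percentile lies at 38.9 to 42.3 in the libraries labelled Oasl1-/-Apoe-/- and at 18.9 and 19.1 in Apoe-/-.

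Cells were then split at the 90th percentile of Apoe-/- cells of their type. Above this value lay 9.51% and 10.5% of Apoe-/- macrophages, by construction, and 66.5%, 65.7% and 68.6% of those labelled Oasl1-/-Apoe-/-. Macrophages above it held 7.49 and 8.76 CP10K of the members in Apoe-/- and 12.8, 11.2 and 10.8 in the others. Macrophages below it held 0.744 and 0.635 against 1.52, 1.30 and 2.72. The rise below the value was thus present but small beside the level above it, and the difference of 1.16 CP10K dropped to 0.724 without replicate 3 labelled Oasl1-/-Apoe-/-. Split arithmetically, 70.5% of the macrophage difference went with more cells above the value, 19.3% with higher levels above it and 10.3% with higher levels below it. The score itself rose with the genotype label, so a shift of all cells and more cells of a high subset cannot be told apart by this split, here or in the other classes.

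The low end of the score was looked at more closely, in 10 bands that each hold an equal number of Apoe-/- cells of the type. Of macrophages labelled Oasl1-/-Apoe-/-, 3.90%, 5.03% and 5.70% (22, 27 and 34 cells) fell within the lower 5 bands, which held 51.8% and 48.5% of the latter. The members stood at 0.287 and 0.372 CP10K in these Apoe-/- cells and at 0.437, 0.409 and 0.576 in the others. In bands 6 to 9 the members were at 1.35 and 0.947 CP10K against 1.67, 1.46 and 3.19. The groups did not overlap in 1 of the 3 single bands that held 20 or more cells of each library. This was the top band, at 7.49 and 8.76 CP10K against 12.8, 11.2 and 10.8, so the count says nothing about the low end. The score is made of genes that rose with the members, so setting cells side by side at like scores takes out part of the difference by construction.

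In smooth muscle cells 36.9%, 39.0% and 37.6% lay above their value in the libraries labelled Oasl1-/-Apoe-/-, against 11% and 9.08%, and below it the members stood at 0.114 and 0.107 CP10K in Apoe-/- and at 0.346, 0.331 and 0.367 in the others. In each of the 10 bands of the score the 3 libraries labelled Oasl1-/-Apoe-/- were above both Apoe-/- libraries. In the lower 5 bands the levels were 0.0837 and 0.104 against 0.283, 0.234 and 0.381. More cells above the value made up 34.5% of the difference, higher levels below it 23.8% and higher levels above it 41.7%.

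In endothelial cells the members stood at 1.04 and 1.07 CP10K below the value in Apoe-/- and 2.26, 2.11 and 2.48 in the others, and at 2.88 and 4.34 against 9.61, 7.75 and 7.61 above it. Above the value lay 11.8% and 8.25% against 32.0%, 38.3% and 35.6% of cells. The 3 parts of the difference were of like size, at 35.0%, 30.6% and 34.4% for more cells above, levels below and levels above. The groups did not overlap in the 3 bands that held 20 or more cells of each library, the top band among them. The lower 5 bands together held 45, 39 and 30 endothelial cells of the libraries labelled Oasl1-/-Apoe-/-. Fibroblasts took 56.1% of their difference from more cells above the value, and in monocytes, dendritic cells and NK/T cells this part was 34.5%, 33.2% and 30.4%. Whether these parts differ between cell types was not tested.

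**Figure D5:**
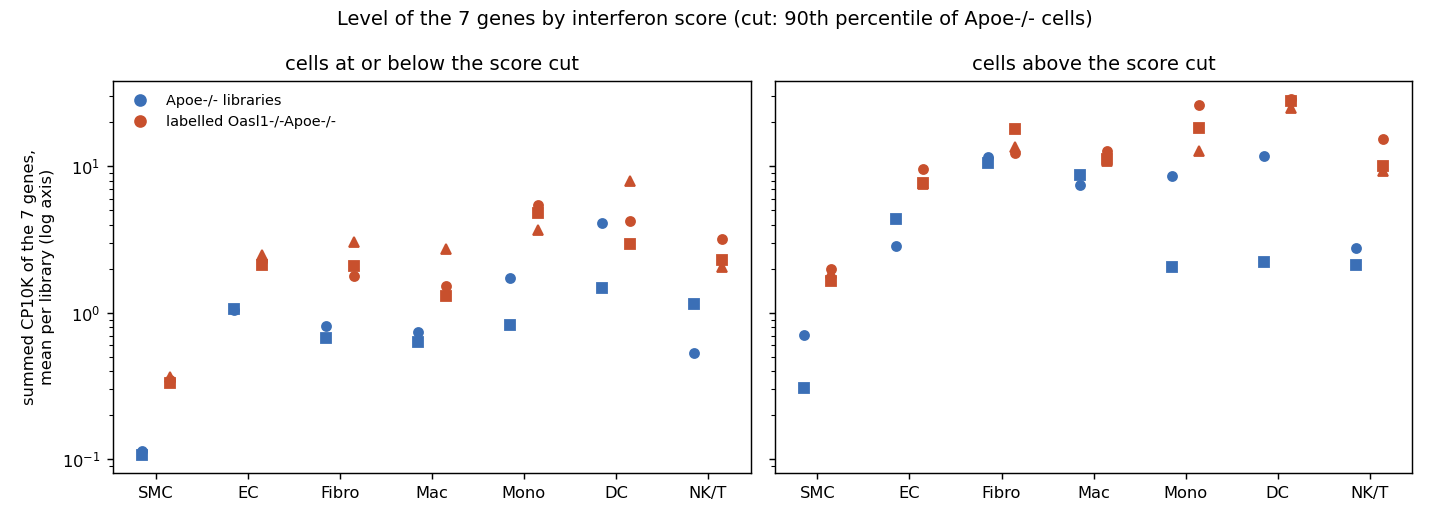
Mean summed level of the 7 genes (CP10K, log axis) in cells at or below and above the 90th percentile of the score of Apoe-/- cells of the type; points are libraries, with classes shortened as in the plot of levels. In smooth muscle cells the level below is 0.107 and 0.114 in Apoe-/- and 0.331 to 0.367 in the libraries labelled Oasl1-/-Apoe-/-.

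The clusters within a class moved together. Of the macrophage clusters, one led by Trem2 and Gpnmb, genes of lipid-laden plaque macrophages, made up 80.8% of Apoe-/- macrophages and 57.1% of the others, and its members went from 1.12 to 7.39 CP10K (6.6-fold). The other, led by Cd72 and Ccl12, made up 19.2% and 42.9% and went from 2.78 to 9.67 CP10K (3.48-fold). Among endothelial cells a cluster led by Emcn, Plvap and Selp, 13.5% of Apoe-/- and 33.4% of the other cells, went from 0.837 to 6.03 CP10K (7.2-fold), and a larger one led by Klk10 and Adh7, 79.4% and 61.5%, from 1.46 to 3.65 (2.51-fold). The members were higher in both macrophage clusters and in these 2 endothelial clusters, and the makeup of the class differed as well. Another 2 endothelial clusters, of 74 and 23 cells, were not compared. The 2 fibroblast clusters went from 1.25 to 6.02 and from 2.72 to 7.15 CP10K, and the 5 smooth muscle clusters were 2.92-fold to 8.17-fold higher.

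Macrophages were more numerous in the libraries labelled Oasl1-/-Apoe-/-, and free RNA from them can enter other droplets. The summed level of 7 macrophage markers in smooth muscle cells was 0.217 ± 0.0198 CP10K (SD, n = 2) in Apoe-/- and 0.577 ± 0.0702 (SD, n = 3) in the others, and in endothelial cells it was 1.04 and 2.60. In smooth muscle cells without a C1q UMI (C1q is made by macrophages) the members went from 0.149 to 0.967 CP10K, 6.47-fold, and in such endothelial cells from 1.34 to 4.20, 3.12-fold. For each UMI of C1q macrophages held 0.00680 and 0.00866 UMIs of the members in Apoe-/- and 0.0411, 0.0352 and 0.0379 in the others, while smooth muscle cells held 0.970 and 0.733 against 2.27, 1.52 and 1.78. In endothelial cells this ratio overlapped between the groups, at 1.38 and 1.52 against 2.5, 1.28 and 2.2, and so it did in fibroblasts, at 6.05 and 11.1 against 7.15, 8.75 and 10.3. Smooth muscle cells of the libraries labelled Oasl1-/-Apoe-/- with at least 3 members had a C1q UMI in 15% to 27.3% of cells, against 17.4% to 22% of those with none. In endothelial cells of these libraries the shares were 27.0%, 30.6% and 37.5% against 16.8%, 27.2% and 17.9%, and in fibroblasts 31.7%, 38.6% and 40.0% against 22.9%, 21.5% and 20.9%. C1q was thus found more often in cells with at least 3 members in each of these libraries in both classes, and those cells were also deeper, for example at a median of 4582 against 3068 UMIs in endothelial cells of replicate 1. The part of RNA from other cells in these values was not tested. The same check in fibroblasts without C1q gave 1.86 and 5.79 CP10K.

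The rest of the pathway was read from lists. In macrophages 68 of the 73 tested other interferon-stimulated genes rose and 1 fell, with a median log2 difference of 1.37, beside −0.01 over all genes. Of all genes tested there, 8.77% were called higher. Some listed genes, such as Ifi213, Ifi44 and Stat2, had passed the filter through the libraries in which they were high. The lists were also chosen with earlier results of these data known. Counts from the lists, here and in the other classes, are therefore descriptions. Ly6a had the largest difference, 5.26, at 0.130 and 0.0815 CP10K in Apoe-/- and 6.17, 5.70 and 5.67 in the others, followed by Ms4a4c (3.52), Ifi27l2a (3.24), Ifi213 (2.58) and Ifi44 (2.55). The gene that fell, named for that reason, was Ifi27, at 2.42 and 2.52 against 1.88, 1.86 and 1.90 CP10K (log2 difference −0.38, limma, adjusted p = 0.00189). Of the ISG15 conjugation enzymes 3 of 4 rose in macrophages, the E2 Ube2l6 by 1.95, the ligase Herc6 by 1.20 and the E1 Uba7 by 1.01, while Trim25, another ligase, dropped by 0.33 on the log2 scale. Of 18 tested genes of interferon signalling 7 rose and 0 fell (limma), with a median of 0.28, among them the transcription factors Irf7 (1.44), Stat2 (1.43), Irf9 (0.69), Irf1 (0.49) and Irf8 (0.34) and the inhibitor Socs3 (0.64). Ifnb1, which codes for interferon beta, was at 0.0682 and 0 CP10K against 0.107, 0.0164 and 0.102 (limma, adjusted p = 0.293), and Ifng, which codes for interferon gamma, was listed at 0 in macrophages of every library. In NK/T cells Ifng was at 2.26 and 2.07 CP10K against 3.85, 3.57 and 2.51 and was not called (log2 difference 0.58, SE 0.19, limma, adjusted p = 0.163).

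In endothelial cells 33 of 61 tested interferon-stimulated genes rose and 0 fell (limma), with a median of 0.78, where 2.59% of all genes were called higher. Zbp1 and, of the signalling genes, Irf8 had passed the filter through the libraries in which they were high. Ifi27l2a led at 3.66, Zbp1 was at 2.10, Iigp1 at 1.96 and Igtp at 1.75, and the chemokine Cxcl10 was at 0.0518 and 0.0715 CP10K against 0.157, 0.878 and 1.12 (2.45). Of 16 signalling genes 3 rose, among them Irf8 by 1.69 and Irf7 by 0.88 (Irf8 is a gene of myeloid cells, and macrophage markers moved in endothelial cells as given above), and of the 4 conjugation enzymes Ube2l6 rose by 0.71. In smooth muscle cells 18 of 33 interferon-stimulated genes and 4 of 13 signalling genes rose, the latter including Irf9 (0.91), Irf1 (0.39) and Ifngr2 (0.25). Irf9 rose in fibroblasts (1.13) and NK/T cells (2.02) as well, Stat2 in fibroblasts (1.04) and Irf7 in dendritic cells (1.70). Ube2l6 rose in fibroblasts (1.07), dendritic cells (1.71) and NK/T cells (1.54). Ifit3b rose in macrophages (1.87), endothelial cells (1.86), fibroblasts (1.59) and NK/T cells (2.28), and shares reads with Ifit3 as given above.

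Over 35 points, 7 classes in 5 libraries, the genes whose level was most like the members' mean level were Xaf1 (Pearson r 0.953), Ifi35 (0.896), Ube2l6 (0.886) and Irf9 (0.867), of 9752 genes compared. All 4 are on the lists of interferon genes, and the first gene outside the lists was Rnaset2b, at rank 14 (0.792). Among the members Isg15 had the highest median r with the other 6 (0.82) and Ifit2 the lowest (0.67). The points share libraries and the genotype labels, so these values are descriptions.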

How the data were processed

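The data were droplet 3′ single-cell RNA-seq of the aortic arch in 5 libraries, grouped by the genotype in the labels. The authors mapped reads to mm10 with Cell Ranger 3.1.0, kept cells with more than 200 genes and under 10% mitochondrial reads in Seurat 4.0.3. Doublets had been taken out by the authors with DoubletFinder, and no further call of doublets was made. The values as deposited are on a natural log scale, as the log of 1 plus UMIs per 10000 UMIs of the cell. Undoing the log gave whole UMIs (within 0.01) for 100% of values. In the table every cell had at least 201 genes, and the median depth was 4495 to 5186.5 UMIs per library.

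The members and lists were chosen with earlier results of these data known. The 82 other interferon-stimulated genes, the signalling and conjugation lists and the cell type markers were listed from textbook knowledge, and 80 of the 82 were in the table. Cells were clustered (2000 variable genes, 12 principal components, 20 neighbours, Leiden resolution 1, leidenalg 0.10.2) without 113 interferon genes. A cluster was named from at least 3 detected markers.

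The mean CP10K per library and class was tested with limma 3.58.1 (R 4.3.3) on log2(CP10K + 0.05) for genes with a mean of at least 0.05, with Benjamini-Hochberg adjustment over all genes tested and a threshold of 0.05. The fit was tested on simulated data. Intervals are 95% Wilson intervals, and a count of 0 was given a limit of 3 UMIs. UMIs were thinned to 1000 per cell at random with a fixed seed. Named were the 7 members, up to 5 called genes of largest difference from a list in macrophages and endothelial cells, the called signalling and conjugation genes, and the genes most like the members. One gene that this rule names is not reported here. Stretches and positions came from GENCODE M21 and promoters from RefSeq. Alternatives are given in the closing section.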

Additional observations from a re-analysis of the deposited data

Results flagged for a closer look

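On the scale of log2(CP10K + 0.05), the rise of Ifit3 was larger in macrophages than in smooth muscle cells by 1.42 (limma, adjusted p = 0.0084) and that of Isg15 by 0.55 (limma, adjusted p = 0.049). Both calls were lost with a smaller pseudocount, and the folds of the mean CP10K were 8.64 and 6.72 for Ifit3 and 5.09 and 4.85 for Isg15. Ifit3 passed the filter in smooth muscle cells through the libraries in which it was high, so these values are no evidence that the rise differed.

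Neutrophil-like cells, 21 to 27 a library with a median of 776 to 1235 UMIs, are in no comparison of the report. They held the members at a summed level of 7.53 and 5.81 CP10K in Apoe-/- and at 43.1, 38.8 and 51.2 in the libraries labelled Oasl1-/-Apoe-/-, a mean of 44.3. Of this, Isg15 made up 21.4 CP10K and Rsad2 8.54 as means over the 3 libraries. These cells are shallow, so a single UMI weighs much.

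Cells of clusters that took no name, 127 to 166 a library, stood at 2.05 and 1.91 CP10K against 5.10, 9.09 and 6.96, a mean of 7.05 in the libraries labelled Oasl1-/-Apoe-/-. With 2 and 3 libraries a group, no search for a library far from its group could be made.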

How the results depend on the processing

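Of 336 alternative values of the counts, levels and shares, 325 kept their direction or stayed within 1.5 times. All 211 alternative levels and shares were higher in the libraries labelled Oasl1-/-Apoe-/-. Of 655 alternative log2 differences of single members within a class, 621 kept direction and call, 23 lost and 10 gained the call and 1 reversed. The members called were 7 over the whole aorta and 7 in macrophages under every setting run.

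Where members counts moved, limma-voom on UMIs called 2 in NK/T cells, and leaving out a library gave 2 to 6 in dendritic cells and 1 to 3 of 4 for macrophages against smooth muscle cells. That last count was 0 with a pseudocount of 0.01 and 1 with the replicate block. With a pseudocount of 0.2, 1 member passed for endothelial against smooth muscle cells and 4 for macrophages against endothelial cells. Member counts under these alternatives, with limma-voom and with the replicate block stand without the matching share of all genes. They are descriptions and cannot be set against a background. Reversed values were Ifit1 in dendritic cells without Apoe-/- replicate 2 (−0.32, the range with each library left out being −0.32 to 1.93), Ifit1 between macrophages and smooth muscle cells with a pseudocount of 0.2 (0.27) and without replicate 2 labelled Oasl1-/-Apoe-/- (0.01, range −0.44 to 0.01), and Usp18 there with a pseudocount of 0.01 (−0.19). In dendritic cells the Ifit1 level of Apoe-/- replicate 1 rested on 19 UMIs in 1 of 67 cells. The cause of the reversals was not tested.

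The members below the score value in macrophages differed by 1.16 CP10K, by 0.397 and 0.145 when the value was set at the 75th and 50th percentile, by 1.64 after thinning and by 0.874 without the 5 most abundant genes of the score, an alternative chosen after seeing the data. In dendritic cells the difference of 2.24 CP10K was 0.981 without Apoe-/- replicate 2 and 0.805 without replicate 3 labelled Oasl1-/-Apoe-/-.

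Calls over all genes moved by over 1.5 times with no filter on low values in smooth muscle cells (256, from 643), endothelial cells (181, from 364), fibroblasts (224, from 344) and monocytes (178, from 276), with limma-voom in endothelial cells (575), with the deposited log values (600) or clusters of all variable genes (614) in fibroblasts, and for macrophages against smooth muscle cells (139 and 714 with pseudocounts of 0.01 and 0.2, 84 with the block, from 318). Leaving out a library gave 361 to 830 calls in smooth muscle cells, 193 to 320 in endothelial cells, 210 to 766 in fibroblasts, 870 to 1588 in macrophages, 114 to 238 in monocytes, 63 to 135 in dendritic cells and 68 to 199 in NK/T cells. For endothelial against smooth muscle cells calls ran from 0 to 27 (from 3), and for macrophages against endothelial cells from 1 to 103 (from 8).

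The groups share 2 replicate numbers. Deviations of same-numbered libraries correlated at 0.0148 and 0.0429, so the numbers are taken as names only, and with them as a block 7 members were called over the whole aorta, 4 in smooth muscle cells, 6 in endothelial cells, 6 in fibroblasts, 7 in macrophages, 6 in monocytes, 5 in dendritic and 5 in NK/T cells. The marker gate gave no value for monocytes and dendritic cells, with under 20 cells in a library. With 2 and 3 libraries no permutation p can be under 0.1, and sparse genes such as Ifit2 and Rsad2 in smooth muscle cells rest on few UMIs.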

Other observations

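Cycling and cartilage-like cells were too few for the comparisons of the report. Cycling macrophage-like cells, 29 in the Apoe-/- libraries and 171 in the others, held Isg15 at a mean of 0.532 ± 0.232 CP10K (SD, n = 2) and 2.46 ± 0.446 (SD, n = 3), and Rtp4 at 0.398 ± 0.356 and 1.63 ± 0.165. Rtp4 was seen in 13.8% of the former and 50.9% of the latter cells. Their shares with Isg15, 17.2% and 47.4%, lay close to those of the other macrophages.

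Cartilage-like cells held Usp18 in 0 of 22 Apoe-/- cells and in 16 of 144 of the others (11.1%). With only 22 cells a count of 0 leaves room for a share like that of the others, so no difference is shown. Erythroid-like cells held Isg15 at a mean of 0.740 CP10K in Apoe-/- and 0.859 in the libraries labelled Oasl1-/-Apoe-/-, with overlapping libraries, and Rsad2 at 0.346 and 0.209. Their summed member level overlapped between the groups, at 1.01 and 1.17 CP10K against 2.84, 1.34 and 0.764, which was not the case in the 7 classes of the report. As the name of these cells is uncertain (see above), this is no result about erythroid cells.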
